A study of Mus musculus with 15 samples.

Results

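The genes described here encode the nuclear subunits of the respiratory chain and of ATP synthase. They were taken by symbol: Ndufa, Ndufb, Ndufc, Ndufs and Ndufv genes for complex I, Sdha to Sdhd for complex II, Uqcr genes and Cyc1 for complex III, Cox4 to Cox8 for complex IV and Atp5 for complex V. Of 26595 rows in the deposited table, 85 carried such a symbol, and 84 of these reached 10 normalized counts in 3 or more of the 15 libraries. The 84 rows held 38 genes of complex I, 4 of complex II, 9 of complex III, 16 of complex IV and 17 of complex V. Cox8b did not pass. Cox7b2 passed through 3 striatal libraries alone. The symbol Ndufa13 stood on 2 rows (ENSMUSG00000036199 and ENSMUSG00000048967), whose genes overlap on 1 strand, which leaves the sharing of reads between the rows uncertain. The GRCm38 annotation names the gene of ENSMUSG00000048967 Yjefn3, so that row may not measure a complex I subunit. It is kept in the counts by its deposited symbol. Ndufa4 is kept under complex I by its symbol, although its protein is known as a complex IV subunit. Atp5s, Atp5sl and Cox7a2l are not plain subunits.

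RNA was sequenced from striatum and cerebral cortex of male C57Bl/6 mice aged 5 months. KO mice carried the Slc1a4 -/- genotype, a knockout of the gene for the neutral amino acid transporter ASCT1, and WT mice were wild type. There were 3 libraries of KO striatum (replicates 2 to 4), 4 of WT striatum (5 to 8), 4 of KO cortex (1 to 4) and 4 of WT cortex (5 to 8). The labels give neither the deleted stretch of the gene nor whether replicates were separate animals, so the p-values speak of the spread among these libraries, which may be technical.

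Slc1a4 checked the genotype labels: it lay between 158 and 344 normalized counts in KO striatum, against 1237 to 1726 in WT striatum, and between 249 and 308 in KO cortex, against 1494 to 1797 in WT cortex. Libraries held 22990233 to 30276815 counted reads, and the members took 0.748% to 1.01% of them. Marker genes separated the tissues as labelled: all 10 genes of striatal projection neurons were called higher in striatum and all 9 tested genes of cortical excitatory neurons lower, in KO and in WT. The striatal libraries were uneven. Choroid plexus genes summed to 91272 normalized counts in KO striatum 4 and 148700 in WT striatum 5, against 1959 to 7014 in the other striatal libraries. Genes of striatal projection neurons summed to 41708 in KO striatum 4 and to 82930 in WT striatum 8, the lowest of their groups. Results that rest on these libraries are given with and without them. In such tissue samples a change in the share of a cell type and a change in RNA per cell cannot be told apart.

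The respiratory chain passes electrons from NADH (complex I) and succinate (complex II) through complex III to oxygen at complex IV, and complex V uses the resulting proton gradient to make ATP. Most of its subunits are encoded in the nucleus and imported, and a few are encoded in mitochondrial DNA. Neurons draw most of their ATP from this pathway. The promoters of the nuclear subunits are known for sites of the factors NRF1, GABPA (of the ETS family), YY1 and ERR.

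RefSeq promoters (GRCm38.p6, 250 bases before to 50 after the start) were matched by symbol for 65 of the 83 distinct member symbols. The 4 promoters below belong to members that were called between the tissues in both genotypes, and between them they hold a match to each of the 4 motifs searched. They were chosen after their values were seen. Capitals mark the matches, and each sequence runs 5′ to 3′ on the strand of its gene.
Sdha, chr13:74350191-74350490, minus strand: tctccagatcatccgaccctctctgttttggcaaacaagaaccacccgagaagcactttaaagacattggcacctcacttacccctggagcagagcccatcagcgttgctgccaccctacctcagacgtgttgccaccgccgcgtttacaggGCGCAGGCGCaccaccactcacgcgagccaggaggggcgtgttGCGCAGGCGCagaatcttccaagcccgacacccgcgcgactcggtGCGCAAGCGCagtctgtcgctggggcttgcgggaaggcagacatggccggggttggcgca
Atp5g3, chr2:73911277-73911576, minus strand: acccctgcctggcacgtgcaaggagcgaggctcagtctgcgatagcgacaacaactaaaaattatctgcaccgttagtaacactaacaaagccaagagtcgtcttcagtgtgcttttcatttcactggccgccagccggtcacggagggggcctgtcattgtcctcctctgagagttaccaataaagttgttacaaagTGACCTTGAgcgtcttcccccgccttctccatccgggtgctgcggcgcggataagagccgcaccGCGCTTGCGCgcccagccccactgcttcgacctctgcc
Ndufs4, chr13:114388045-114388344, minus strand: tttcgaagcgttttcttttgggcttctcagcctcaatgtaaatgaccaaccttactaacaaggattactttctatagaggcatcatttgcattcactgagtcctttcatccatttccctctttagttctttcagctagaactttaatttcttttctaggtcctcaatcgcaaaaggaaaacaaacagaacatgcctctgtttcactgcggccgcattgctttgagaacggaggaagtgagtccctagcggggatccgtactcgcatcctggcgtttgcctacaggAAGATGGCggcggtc
Cox8a, chr19:7217567-7217866, minus strand: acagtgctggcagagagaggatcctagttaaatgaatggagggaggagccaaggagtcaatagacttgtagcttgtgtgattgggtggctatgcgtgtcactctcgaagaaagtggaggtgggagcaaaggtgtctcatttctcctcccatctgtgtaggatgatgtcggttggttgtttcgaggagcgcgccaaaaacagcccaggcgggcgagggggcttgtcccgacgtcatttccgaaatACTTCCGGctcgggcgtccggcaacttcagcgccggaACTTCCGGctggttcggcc

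In these promoters the capitals mark the NRF1 motif (GCGC, any base, then TGCGC) at 3 places in Sdha and 1 in Atp5g3, the ERR motif TNAAGGTCA in Atp5g3, the YY1 motif AAGATGGC in Ndufs4, and the ETS motif CCGGAAGT at 2 places in Cox8a. Matches on either strand were counted, and in no member promoter did matches of different motifs overlap. The NRF1 motif was found for 17 of 65 members (26.2%), against 10.2% of the 11652 tested genes with a promoter. YY1 matched 13.8% of members and 4.68% of all tested genes, and ERR 4.62% and 1.01%. For the ETS motif the shares were 7.69% and 7.86%. Cox8a, the member that was lower in striatum, held 2 ETS matches. Members with a promoter were also split by their WT call. An ETS match was held by 1 of the 24 members called higher in WT striatum (4.17%) and 4 of the 41 others (9.76%). The NRF1 shares of these sets were 20.8% and 29.3%. For YY1 they were 20.8% and 9.76%, and for ERR 4.17% and 4.88%. The sets were not tested against each other. All these counts are matches of letters and not evidence of binding.

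Levels of different genes were set side by side as normalized counts per 1000 bases of transcript. Length was the median over the annotated transcripts of a gene, so levels and isoform shares depend on the annotation. On this scale the most abundant transcripts over all libraries were Atp5b, the catalytic beta subunit of ATP synthase (13500), Cox4i1, a regulatory subunit of complex IV (12100), and Cox8a, its smallest nuclear subunit (10100). Ndufa4 led the complex I list at 7580, Uqcrh complex III at 5490 and Sdha complex II at 3670. The median per complex was 1620 for complex I, 1740 for complex II, 3020 for complex III, 2740 for complex IV (Cox8b included) and 3250 for complex V. The lowest transcripts were tissue isoforms: Cox7b2 at 12.5, Cox8b at 25.8, Cox4i2 at 42.6, Ndufa4l2 at 48.7, Cox7a1 at 69.7, Cox6b2 at 113 and Cox6a2 at 145.

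**Figure D1:**
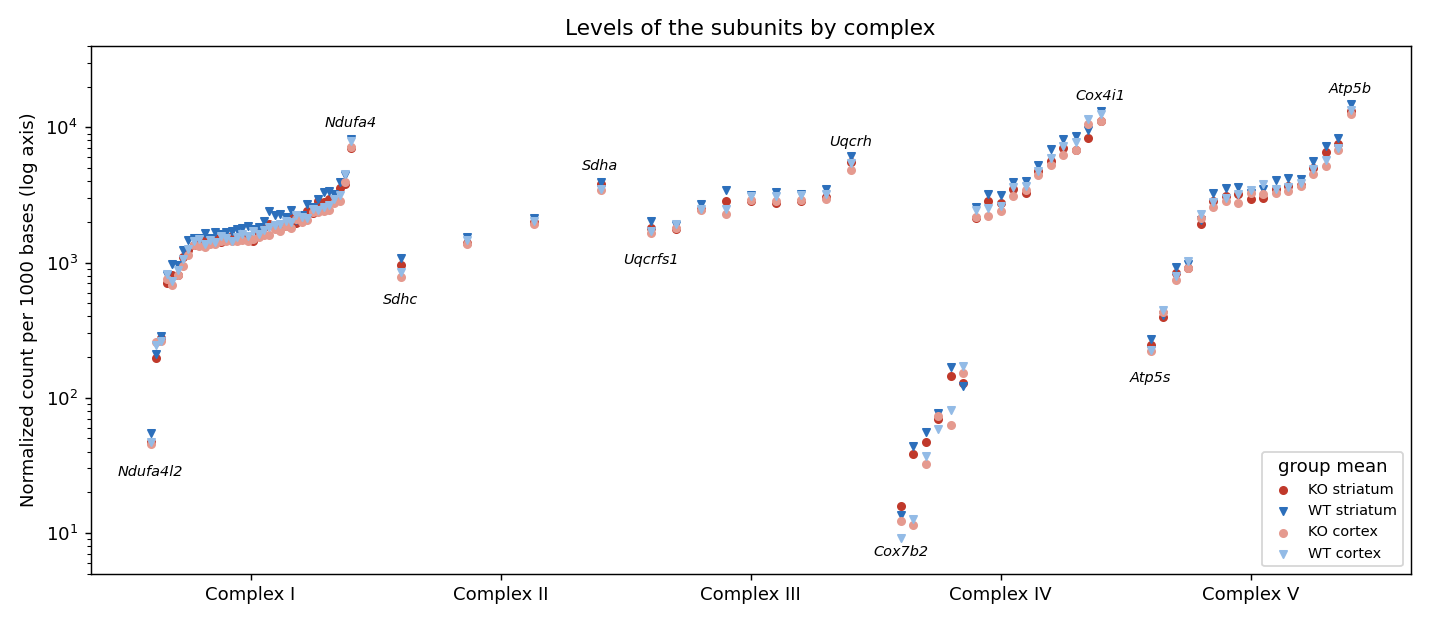
Normalized count per 1000 bases of transcript (log axis) of every member and of Cox8b, by complex and ordered by level within it; each symbol is the mean of a group, with KO as circles and WT as triangles. The highest and lowest gene of each complex are named, and complex IV shows the widest span, between Cox7b2 at 12.5 and Cox4i1 at 12100.

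In every isoform family of complex IV 1 gene supplied nearly all of the transcript. Cox4i1, the general form, made up 99.5% to 99.8% of the Cox4 transcripts in the 15 libraries, and Cox4i2, the form known from lung and from low oxygen, the rest. Cox6a2, a heart and skeletal muscle form, made up 1.83% ± 0.762 of the Cox6a transcripts in KO striatum (SD, n = 3) and 1.41% ± 0.159 in WT striatum (SD, n = 4), against 2.19% ± 0.315 in KO cortex and 2.14% ± 0.239 in WT cortex (SD, n = 4 each). KO striatum 4 held the highest share, 2.70%, and the 4 WT striatal libraries all lay below the 4 WT cortical ones. Cox7a1, another muscle form, made up 1.19% to 3.06% of Cox7a1 and Cox7a2, with no order between the groups. Cox6b2 made up 1.95% ± 1.07 of the Cox6b transcripts in KO striatum (SD, n = 3) and 1.98% ± 0.713 in WT striatum (SD, n = 4), against 0.991% ± 0.179 in KO cortex (SD, n = 4). Cox7b2, a testis form, made up 0.700% of the Cox7b transcripts in KO striatum and 0.528% in WT striatum, against 0.564% in KO cortex and 0.376% in WT cortex, from few reads. Ndufa4l2, a relative of Ndufa4 known to be induced by low oxygen, made up 0.463% to 0.817% of the Ndufa4 family.

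The c-ring of ATP synthase is encoded by 3 genes whose mature protein is the same. Atp5g3 made up 78.8% ± 0.279 of their transcripts in KO striatum (SD, n = 3) and 79.3% ± 0.681 in WT striatum (SD, n = 4), against 75.9% ± 1.37 in KO cortex and 75.9% ± 0.676 in WT cortex (SD, n = 4 each). All 7 striatal libraries lay above all 8 cortical ones (78.4% or more and 77.7% or less). Atp5g2 lay the other way, at 11.1% ± 0.752 in KO striatum and 10.6% ± 0.733 in WT striatum, against 13.3% ± 0.779 in KO cortex and 13.5% ± 0.543 in WT cortex. The sizes of these shares rest on annotated lengths of 2675 bases for Atp5g1, 586 for Atp5g2 and 718 for Atp5g3. Without division by length, the mean normalized counts over all libraries were 2207, 561 and 4425.

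The comparison of striatum with cortex asked how the 2 tissues differ. In KO mice 12 of the 84 members were called higher in striatum (14.3%) and 1 lower, and in WT mice 31 were called higher (36.9%) and 1 lower. Called means an adjusted p below 0.05 in limma, adjusted by the Benjamini-Hochberg method over 17030 genes. Of all genes tested, 18.4% were called higher in KO striatum and 24.9% in WT striatum, and 19.5% and 25.7% were called lower. The members' share of higher calls was thus below the background in KO and above it in WT, and the share of lower calls was 1.19% in each. The median log2 fold change over members was 0.089 in KO and 0.171 in WT, against 0.002 and 0.006 over all genes. The comparisons in KO and WT share no library. All 13 members called in KO were among the 32 called in WT and had the same direction, which is 100% of the KO calls and 40.6% of the WT calls. The log2 fold change had the same sign in both genotypes for 69 of 84 members.

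In the same tissue comparison 10 of 10 oligodendrocyte markers were called higher in striatum in both genotypes, and ependymal markers were called higher for 8 of 10 genes in KO and 9 of 10 in WT. Genes of thalamus, septum and pallidum, which border the striatum, were called higher for 7 of 10 in KO and 8 of 10 in WT, and summed to 53792 normalized counts in KO striatum 4, against 8826 and 14252 in the other KO striatal libraries, and to 14189 to 33357 in WT striatum. Microglia markers were called higher for 2 of 10 in KO and 6 of 10 in WT, and 1 was called lower in each genotype. Genes of cortical excitatory neurons summed to 15654, 8374 and 15040 normalized counts in KO striatum 2, 3 and 4. In WT striatum they summed to 2952.5 to 7430.5, and in the cortical libraries to 58556 to 68615. The part of these cell types in the members' values was not tested. The KO counts moved with single libraries. Without KO striatum 3, 25 members were called higher in KO striatum (16.8% of all genes), and it was 6 each without KO cortex 1 (15.4%), KO cortex 2 (17.2%) or KO striatum 4 (16.2%). The members' median in KO was 0.166 without KO striatum 3 and 0.006 without KO striatum 4. In WT, leaving out any 1 of the 15 libraries gave 25 to 36 members called higher, with 21.8% to 26.8% of all genes called higher, and a median between 0.119 and 0.200.

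**Figure D2:**
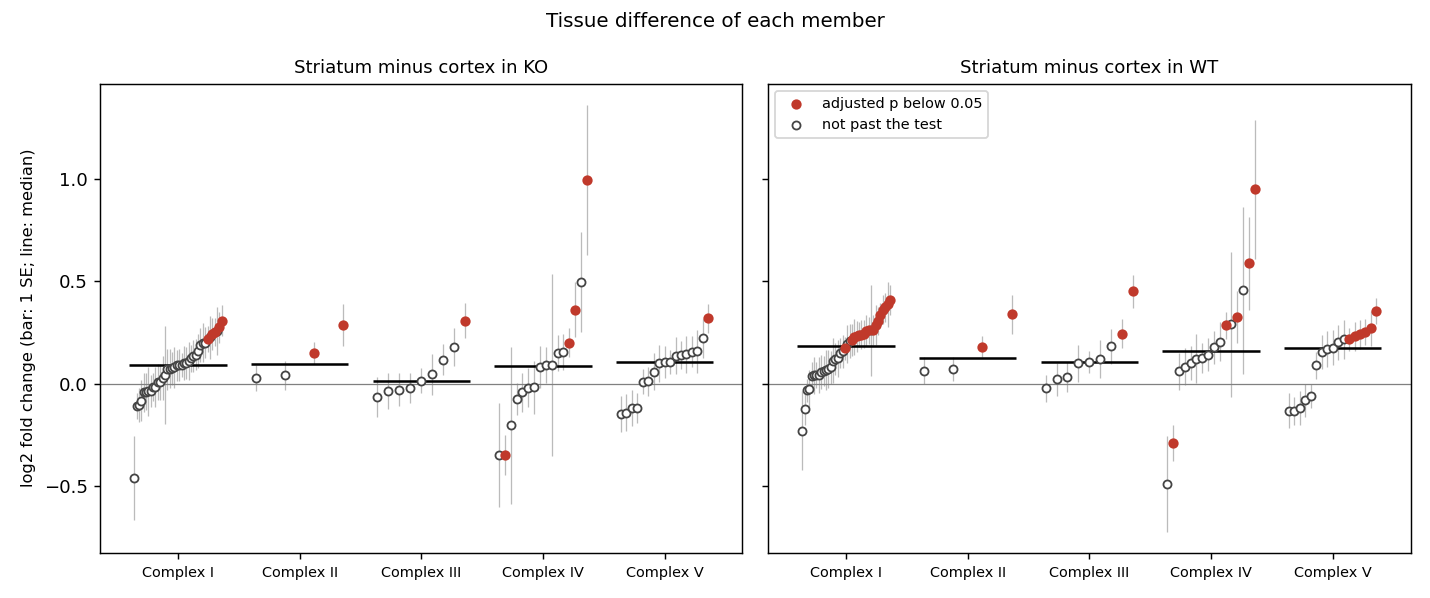
log2 fold change of each of the 84 members between striatum and cortex, in KO (left) and WT (right), by complex and ordered by size; grey bars are 1 SE, black lines the median of the complex, and filled symbols have an adjusted p below 0.05. The medians lie above 0 in all 5 complexes in both panels, and 1 filled symbol in complex IV, Cox8a, lies below 0.

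Complex I, which oxidises NADH, had 5 of 38 genes called higher in KO striatum (13.2%) and 17 in WT striatum (44.7%), with none lower. Over all genes the shares called higher were 18.4% and 24.9%. The 7 core subunits of complex I, which carry the redox centres, held 1 of the KO calls and 3 of the WT calls. The 31 other genes held 4 and 14. Ndufs4, an accessory subunit whose loss causes Leigh syndrome in humans, stood at 1311, 1308 and 1493 normalized counts in KO striatum, against 1063, 1083, 1245 and 1244 in KO cortex. In WT it stood at 1775, 1575, 1679 and 1597 in striatum and at 1254, 1214, 1371 and 1154 in cortex. Striatal libraries lay above cortical ones in both genotypes without overlap. The log2 fold change of Ndufs4 was 0.24 in KO (SE 0.08, limma adjusted p = 0.027) and 0.41 in WT (SE 0.07, adjusted p = 0.00038). The KO call was kept in 12 of 15 fits that each left out 1 library.

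Ndufv2, a core subunit with an iron-sulfur centre, averaged 3173 ± 162 in KO striatum (SD, n = 3) and 2728 ± 123 in KO cortex (SD, n = 4), a log2 fold change of 0.22 (SE 0.06, limma adjusted p = 0.012). In WT its means were 3574 ± 232 and 2827 ± 97.9 (SD, n = 4 each), with 0.34 (SE 0.06, adjusted p = 0.00021). Ndufb5 and Ndufb10, accessory subunits of the membrane arm, had log2 fold changes of 0.31 and 0.28 in KO (limma adjusted p = 0.0049 and 0.0097) and of 0.30 and 0.36 in WT (adjusted p = 0.0020 and 0.00057). Ndufc2, of the same arm, changed by 0.25 in KO and 0.26 in WT. Ndufb5, Ndufs1, Ndufs3 and Ndufv2 are among the members that overlap a gene on the other strand, and without a stated strand setting such reads cannot be told apart. Ndufa3 and Ndufa1, 2 small accessory subunits, were called in WT (0.37 and 0.39, limma adjusted p = 0.00050 and 0.0085) and not in KO (0.20 and 0.26, adjusted p = 0.051 and 0.099). No test of the difference between genotypes was passed by either.

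Complex II, succinate dehydrogenase, also belongs to the citrate cycle. Sdha, its flavoprotein, stood at 10533, 10947 and 11632 in KO striatum, against 9634, 9957, 10326 and 9864 in KO cortex. In WT it stood at 11405, 11528, 10996 and 12089 in striatum and at 10201, 10328, 10221 and 9833 in cortex. The tissues did not overlap, and the log2 fold change of Sdha was 0.15 in KO (SE 0.05, limma adjusted p = 0.041) and 0.18 in WT (SE 0.05, adjusted p = 0.0079). The KO call of Sdha was kept in 6 of 15 fits without a library, and the WT call in 15 of 15. Sdhc, a membrane anchor, had 1734, 1717 and 2245 in KO striatum, against 1417, 1518, 1568 and 1681 in KO cortex. In WT Sdhc had 2535, 1930, 2009 and 2156 in striatum and 1729, 1728, 1726 and 1607 in cortex. KO striatum 4 and WT striatum 5, the libraries rich in choroid plexus transcripts, were the highest of their groups. Sdhc changed by 0.29 in KO (SE 0.10, limma adjusted p = 0.038) and 0.34 in WT (SE 0.10, adjusted p = 0.0083), and its KO value without KO striatum 4 was 0.16, which was not called. The KO call of Sdhc was kept in 11 of 15 such fits. Sdhb, the iron-sulfur subunit, and Sdhd, the other anchor, were called in neither genotype: Sdhb had log2 values of 0.04 in KO and 0.06 in WT, and Sdhd of 0.03 and 0.07.

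Complex III passes electrons to cytochrome c. In KO striatum 1 of its 9 genes was called higher (11.1%) and in WT striatum 2 of 9 (22.2%). Of all genes, 18.4% and 24.9% were called higher. Uqcrb (GRCm38 chr13:66900617-66905378, minus strand), a small subunit beside the ubiquinone site, stood at 1551, 1406 and 1625 in KO striatum, against 1201, 1247, 1229 and 1248 in KO cortex. In WT it stood at 2103, 1766, 1547 and 1959 in striatum and at 1321, 1308, 1435 and 1295 in cortex. Within each genotype the striatal libraries lay above the cortical ones. The log2 fold change of Uqcrb was 0.31 in KO (SE 0.09, limma adjusted p = 0.012) and 0.45 in WT (SE 0.08, adjusted p = 0.00032). Uqcrb overlaps Gm10767 on the other strand. Uqcrfs1, the Rieske iron-sulfur protein, was called in WT alone (0.25, limma adjusted p = 0.0093, with 0.12 in KO, adjusted p = 0.24). Cyc1, cytochrome c1, had values of -0.02 in both genotypes and was not called.

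Complex IV, cytochrome c oxidase, held the widest range of tissue differences. It had 3 of 16 genes called higher and 1 lower in KO striatum, and 4 higher and 1 lower in WT striatum. Cox8a, called lower, stood at 4692, 3903 and 5078 in KO striatum, against 6012, 5589, 5406 and 6100 in KO cortex. In WT Cox8a stood at 5939, 4541, 5005 and 5400 in striatum and at 6506, 6074, 6807 and 6062 in cortex. All striatal libraries lay below all cortical libraries of their genotype. The log2 fold change of Cox8a was -0.35 in KO (SE 0.10, limma adjusted p = 0.011) and -0.29 in WT (SE 0.09, adjusted p = 0.014). Its KO value was -0.24 without KO striatum 3 and its WT value -0.23 without WT striatum 6, neither of them called. With each library's trend by transcript length and GC content removed, the WT value was -0.13 (adjusted p = 0.20) and the KO call remained. The members whose values followed Cox8a most closely over the 15 libraries were Atp5l (Pearson's r = 0.862), Atp5d (0.838) and Cox6a2 (0.796). These points share libraries and depth, and the tissue difference enters them.

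Cox7c, a small subunit of complex IV, had 1659, 1247 and 1736 in KO striatum, against 1089, 1244, 1173 and 1268 in KO cortex. KO striatum 3 lay among the cortical libraries. The log2 fold change of Cox7c was 0.36 in KO (SE 0.14, limma adjusted p = 0.048) and 0.33 in WT (SE 0.13, adjusted p = 0.042), and the KO call was kept in 4 of 15 fits without a library and the WT call in 8 of 15. Cox7a2l, known as an assembly factor of respiratory supercomplexes, changed by 0.20 in KO (SE 0.07, adjusted p = 0.039) and 0.29 in WT (SE 0.07, adjusted p = 0.0024, limma), and its KO call was kept in 9 of 15 fits without a library and its WT call in 15 of 15.

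**Figure D3:**
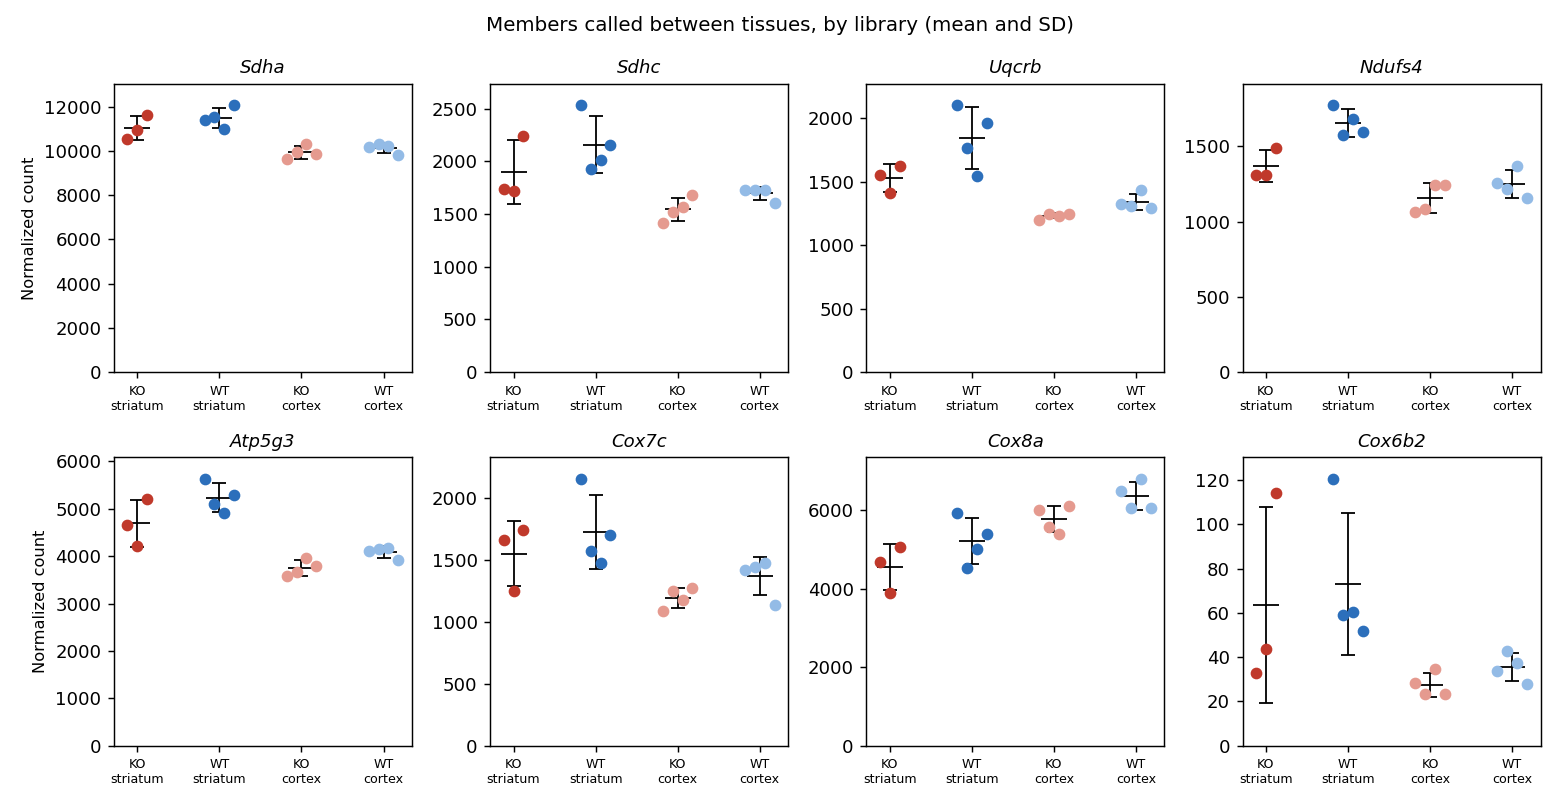
Normalized counts of 8 members by library, with the mean and SD of each group as bars and KO left of WT in each tissue. Cox8a is lower in striatum, the other 7 are higher, and Cox6b2 has its highest values in KO striatum 4 (114) and WT striatum 5 (121).

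The largest tissue difference belonged to Cox6b2 (GRCm38 chr7:4751792-4753094, minus strand), known as a testis form of a complex IV subunit and here a rare transcript. It stood at 32.8, 43.8 and 114 in KO striatum, against 28.2, 23.4, 34.9 and 23.3 in KO cortex. In WT it stood at 121, 58.9, 60.6 and 51.9 in striatum and at 33.9, 42.8, 37.5 and 28.1 in cortex. Cox6b2 was highest in KO striatum 4 and WT striatum 5, which hold choroid plexus sums of 91272 and 148700. Its log2 fold change was 0.99 in KO (SE 0.37, limma adjusted p = 0.044) and 0.95 in WT (SE 0.34, adjusted p = 0.030). Without KO striatum 4 the KO value was 0.47 and without WT striatum 5 the WT value was 0.68, and neither was called. Other libraries mattered too: the KO call of Cox6b2 was kept in 5 of 15 fits without a library and the WT call in 12 of 15. Cox8b, a muscle form that was not tested, had 4.38, 0 and 37 in KO striatum, 44.4, 7.11, 4.49 and 7.42 in WT striatum, and 0.942 to 7.61 in the cortical libraries. Its 0 in KO striatum 3 rests on 0 reads, which allows up to 3.13 normalized counts (3 reads, counting error only). The high values of Cox8b fell in the same 2 libraries as those of Cox6b2, and the part of choroid plexus in them was not tested.

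Cox4i2 was called higher in WT striatum (0.59, SE 0.23, limma adjusted p = 0.042) and not in KO (0.50, SE 0.25, adjusted p = 0.12). It stood at 36.4, 37.6, 41.5 and 46.6 in WT striatum and at 30.1, 24.7, 34.7 and 19.1 in WT cortex. Its WT call was kept in 8 of 15 fits without a library. Cox6a2 stood at 67.9, 54.2 and 142 in KO striatum, against 107, 89.8, 93 and 126 in KO cortex, and at 84.2, 70.1, 77.4 and 99.6 in WT striatum, against 121, 102, 133 and 108 in WT cortex. The WT groups did not overlap, yet its log2 values of -0.35 in KO and -0.49 in WT did not pass (limma adjusted p = 0.30 and 0.096). Without KO striatum 4, the highest of its group, Cox6a2 was called lower in striatum in both genotypes. With only the libraries of the compared groups, or with a replicate block, it was called lower in WT and not in KO. Cox6a2 overlaps Itgad on the other strand. Muscle markers summed to 707 to 1695 normalized counts in KO striatum, 1515 to 2793 in WT striatum, 814 to 986 in KO cortex and 963 to 1196 in WT cortex. Their genes went both ways: of 4 tested, 1 was called higher and 2 lower in striatum in each genotype. The median log2 fold change of the 4 was -0.760 in KO and -0.725 in WT.

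Complex V, ATP synthase, had 1 of 17 genes called higher in KO striatum (5.88%) and 6 of 17 in WT striatum (35.3%), with none lower. The shares of all genes called higher were 18.4% and 24.9%. Atp5g3, the main c-ring gene, stood at 4650, 4221 and 5204 in KO striatum, against 3575, 3665, 3959 and 3795 in KO cortex. In WT it stood at 5636, 5097, 4912 and 5296 in striatum and at 4115, 4162, 4178 and 3916 in cortex. The tissues did not overlap in either genotype. The log2 fold change of Atp5g3 was 0.32 in KO (SE 0.07, limma adjusted p = 0.0024) and 0.35 in WT (SE 0.07, adjusted p = 0.00039), and it kept its call in all 27 alternative settings in each genotype. Its nearest likenesses over the 15 libraries were Ndufb5 (Pearson's r = 0.971), Atp5a1 (0.965) and Ndufv2 (0.962). The sister gene Atp5g2 had values of 0.01 in KO and -0.06 in WT, neither called. By place in the enzyme, the WT calls were Atp5a1 and Atp5c1 of the F1 head and central stalk (2 of 5), Atp5g3 of the c-ring (1 of 3), Atp5f1 of the peripheral stalk (1 of 4), Atp5j2 of the small membrane subunits (1 of 3), and Atp5s. Atp5d, Atp5k, Atp5l and Atp5sl had values below 0 in both genotypes, between -0.15 and -0.08, and none was called. Atp5d was called lower in KO without KO striatum 4, and Atp5l in WT without WT striatum 5.

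KO and WT were then compared within each tissue. No member was called in striatum, where 0.0705% of all genes were called higher and 0.00587% lower, or in cortex, where 0.0% were called higher and 0.00587% lower. In striatum 84 of 84 members had a log2 fold change below 0, with a median of -0.184 and a range of -0.34 to -0.03, and in cortex 80 of 84, with a median of -0.115 and a range of -0.37 to 0.32. Of all genes, 48.3% lay below 0 in striatum and 49.5% in cortex, with medians of 0.008 and 0.001. An unadjusted limma p below 0.05 was reached by 41 members in striatum (15.3% of all genes) and 9 in cortex (2.51% of all genes). KO libraries lay below WT libraries without overlap for 12 members in striatum and 16 in cortex, against 4.12% and 2.28% of all genes, and above them for 0 members, against 3.96% and 1.73%. The smallest adjusted p of a member was 0.17 in striatum and 1 in cortex. Members varied together from library to library, so these counts are not of independent genes. edgeR called no member in either tissue (limma's counts at an unadjusted p are given above), and DESeq2 called none in cortex and 3 in striatum, Cox5b, Ndufa7 and Ndufs3, all lower (0.857% of all genes).

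The striatal values rested on 3 KO libraries that differed widely. Without KO striatum 4, limma called 10 members lower (1.23% of all genes), among them Atp5c1, Ndufs3, Ndufa7 and Atp5f1. Without KO striatum 4 and WT striatum 5 it called 2 (0.628% of all genes), Atp5c1 and Ndufs3, and without KO striatum 4 and WT striatum 8 it called 7 (2.13%). The median over members was -0.269 without KO striatum 4 and -0.093 without KO striatum 3, with 83 and 76 of 84 members below 0. Markers moved too: in striatum all 10 genes of striatal projection neurons and all 10 of oligodendrocytes lay below 0 (medians -0.832 and -0.258), and all 9 of cortical excitatory neurons above 0 (median 1.396), 1 of them called. Striatal projection genes summed to 41708 to 96425 in KO striatum, against 82930 to 185530 in WT striatum. In cortex no marker was called, and all 10 choroid plexus genes lay above 0 (median 1.324) and all 10 striatal projection genes below 0 (median -0.482). Ependymal genes lay above 0 for 10 of 10 in striatum (median 0.440) and 10 of 10 in cortex (median 0.769), and those of endothelial cells and pericytes for 6 of 10 in striatum and 10 of 10 in cortex (medians 0.03 and 0.11). The part of these cell types in the members' values was not tested.

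Transcript length moved with the genotype difference. Over 16916 genes the log2 fold change followed transcript length with a Spearman correlation of 0.160 in striatum and 0.262 in cortex, so shorter transcripts tended to lie lower in KO. The members' transcripts are short, with a median of 743.5 bases against 2616 over the genes tested. With each library's trend by length and GC content removed, the members' median was -0.195 in striatum and -0.087 in cortex, against -0.038 and -0.020 over all genes, and no member was called.

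**Figure D4:**
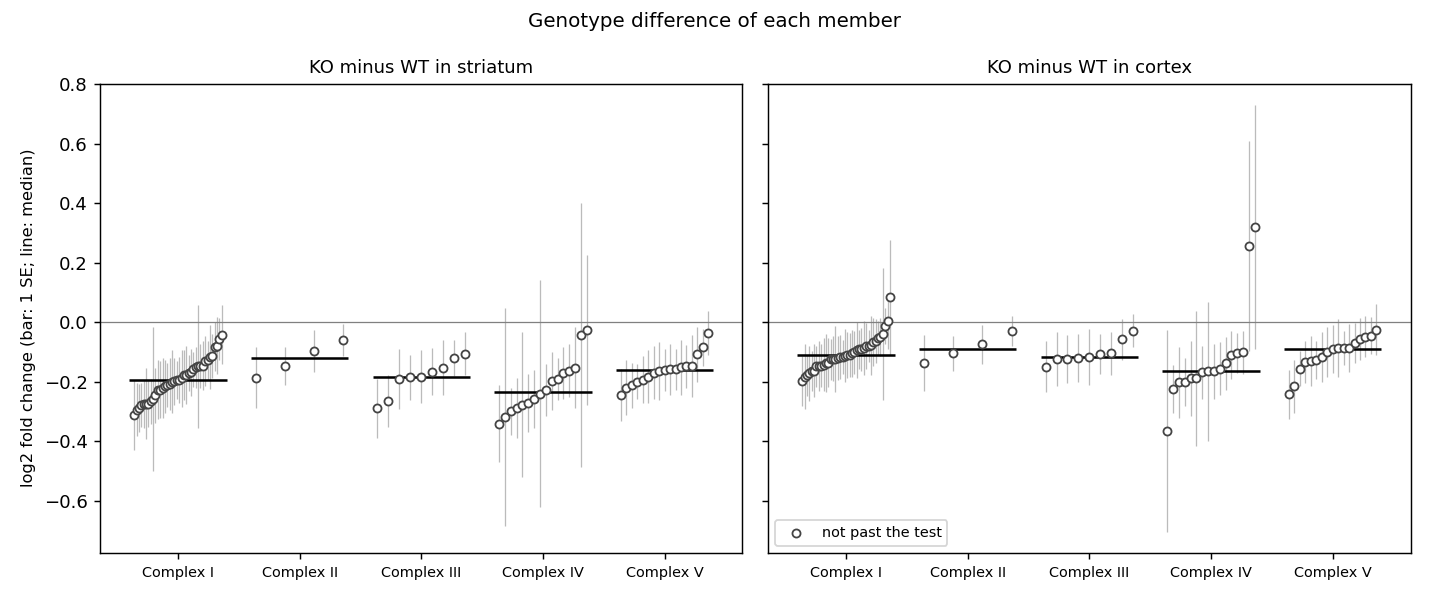
log2 fold change of each of the 84 members between KO and WT, in striatum (left) and cortex (right), by complex and ordered by size; grey bars are 1 SE and black lines the median of the complex. No member passed the test, all 84 points lie below 0 in striatum, and 80 of 84 do in cortex.

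By complex the median KO difference in striatum was -0.194 for complex I, -0.122 for II, -0.183 for III, -0.234 for IV and -0.162 for V. In cortex these medians were -0.112, -0.090, -0.116, -0.166 and -0.091. Complex II was the nearest to 0 and complex IV the farthest in both tissues, and no complex was tested against another. The members with the smallest p in striatum are given as values only. Cox5b, a zinc-binding subunit of complex IV, stood at 2689, 2097 and 2554 in KO striatum, against 3267, 2814, 2812 and 3112 in WT striatum. The groups did not overlap, and the log2 value of -0.30 (SE 0.08) had a limma adjusted p of 0.17. Ndufs3, a core subunit of complex I, stood at 1574, 1451 and 1793 in KO striatum, against 2204, 1842, 1924 and 1865 in WT striatum, also without overlap (-0.29, SE 0.08, limma adjusted p = 0.17). Ndufa7, an accessory subunit, averaged 998 ± 95 in KO striatum (SD, n = 3) and 1209 ± 91.6 in WT striatum (SD, n = 4), with KO striatum 4 above the lowest WT library. Atp5c1, the gamma subunit of the central stalk, averaged 4265 ± 397 in KO striatum and 4888 ± 193 in WT striatum.

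In cortex the smallest p belonged to Atp5k, a small membrane subunit of ATP synthase, at 965, 1029, 1053 and 1101 in KO cortex, against 1165, 1291, 1319 and 1140 in WT cortex. The groups did not overlap, and the log2 value was -0.24 (SE 0.08, limma unadjusted p = 0.0096, adjusted p = 1). Cox7a2, the general Cox7a form, stood at 1954, 1932, 2192 and 2171 in KO cortex, against 2506, 2375, 2505 and 2248 in WT cortex (-0.23, SE 0.08, limma adjusted p = 1). Ndufa7 averaged 902 ± 42.7 in KO cortex and 1020 ± 21.6 in WT cortex, and Sdhd 1690 ± 30.8 and 1818 ± 38.7 (SD, n = 4 each), in both cases without overlap. The members above 0 in cortex were Cox7a1, Cox7b2, Ndufb2 and the Ndufa13 row ENSMUSG00000048967, which is annotated as Yjefn3. Cox7a1 and Cox7b2 are transcripts of few reads, and Cox7b2 rested on 2 to 12 reads a library.

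Whether the KO difference itself differed between the tissues was tested as an interaction. No member was called (smallest limma adjusted p 0.96), against 0.00587% of all genes called higher and 0.0% lower, and 0 members had an unadjusted p below 0.05, against 4.90% of all genes. edgeR and DESeq2 also called none. The value in striatum was more negative than in cortex for 72 of 84 members (50.2% of all genes), with a median difference of -0.078, and this median was 0.021 without KO striatum 3. The smallest p belonged to Cox5b, at -0.20 (SE 0.11, limma unadjusted p = 0.080), and Ndufa3 followed at -0.17 (SE 0.10). The largest sizes, -0.50 and -0.36, belonged to the rare transcripts Cox7a1 and Cox7b2. The same test is the test of whether the tissue difference depends on genotype, so the higher count of tissue calls in WT is not shown to be a difference between genotypes.

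**Figure D5:**
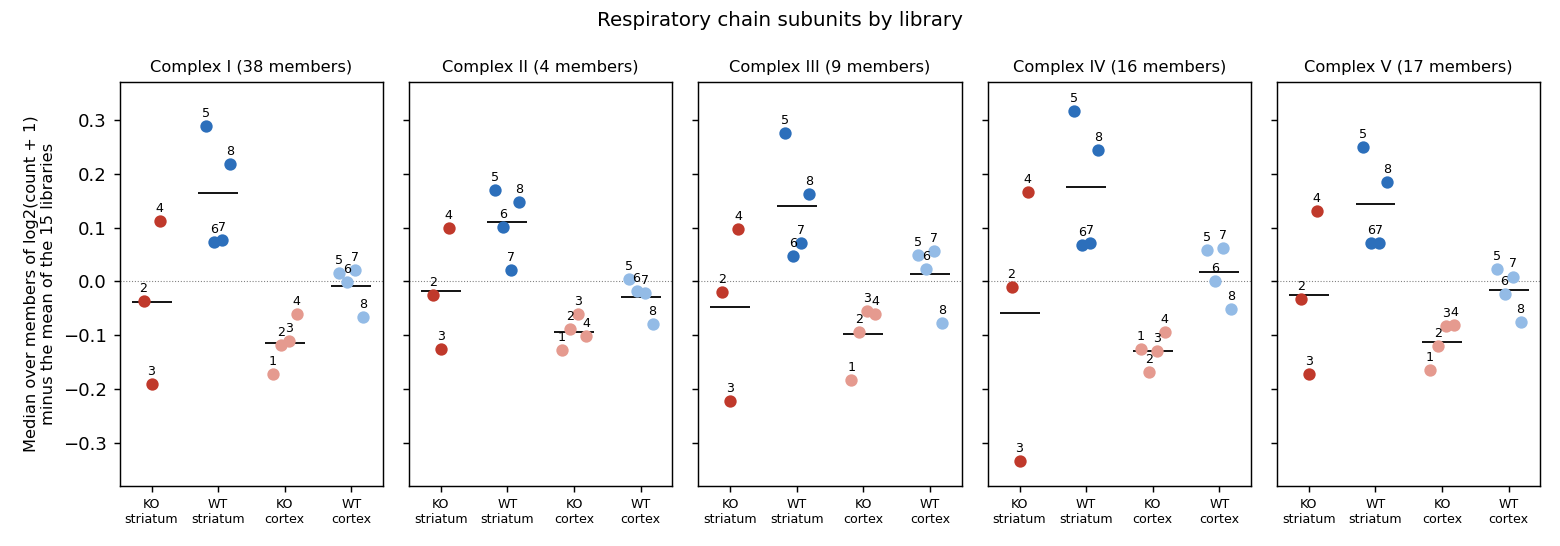
Median over the members of each complex of the log2 value minus the mean of the 4 group means, for every library. Replicate numbers stand beside the points, and lines are group means. The axis label names the mean of the 15 libraries, but each group counted equally in it. KO striatum 3 is the lowest library in complexes I, III, IV and V, and WT striatum 5 the highest in all 5 complexes.

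Library by library, the members' summed normalized counts were 218320, 191880 and 240630 in KO striatum (replicates 2 to 4), against 264300, 232410, 231060 and 252850 in WT striatum (replicates 5 to 8). In cortex they were 199540, 203540, 208420 and 210690 in KO, against 227230, 220480, 223750 and 211820 in WT. The KO and WT sums did not overlap in cortex, and in striatum KO striatum 4 lay above 2 WT libraries. KO striatum 3 held the lowest of the 7 striatal values for 75 of 84 members, and WT striatum 5 the highest for 54. In cortex KO cortex 1 held the lowest of 8 values for 47 members, and WT cortex 5 and WT cortex 7 the highest for 33 each.

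The members varied together within groups. After removal of the group means, the median pairwise Pearson correlation over the 15 libraries was 0.663 (3486 pairs), and within complexes it was 0.647 for I, 0.468 for II, 0.658 for III, 0.657 for IV and 0.659 for V. It was 0.695 among the 77 members with a mean of at least 300 normalized counts and 0.246 among the 7 below. Against all other members, Ndufa8 (0.818), Ndufa4 (0.813) and Cox7a2 (0.804) had the highest median correlation. The lowest were the Ndufa13 row ENSMUSG00000048967 (-0.151, annotated as Yjefn3), Atp5g2 (0.157) and Ndufb4 (0.217). The correlations share libraries and scaling and are given as a description.

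Other mitochondrial genes were counted from lists. No list was tested as a set. Of all genes tested, 18.4% were called higher and 19.5% lower in KO striatum, and 24.9% and 25.7% in WT striatum. Assembly factors of complex I had 2 of 13 genes called higher and 0 lower in KO striatum against cortex, and 3 higher and 2 lower in WT. Nubpl, which inserts iron-sulfur clusters into complex I, rose by 0.42 in KO (limma adjusted p = 0.0061) and 0.41 in WT (adjusted p = 0.0027). Assembly factors of complexes II, III and V had 2 of 13 higher in KO and 4 in WT, with Sdhaf4 at 0.32 in each. Assembly factors of complex IV had 1 of 19 higher and 2 lower in KO and 3 higher and 1 lower in WT: Cox20 rose by 0.52 and 0.58, and Cox19 fell by 0.26 in KO and by 0.38 in WT.

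Enzymes of the citrate cycle and pyruvate dehydrogenase had 2 of 17 genes called higher and 1 lower in KO striatum, and 7 higher and 1 lower in WT striatum. Suclg1, the alpha subunit of succinyl-CoA ligase, rose by 0.27 in KO (limma adjusted p = 0.0031) and 0.40 in WT (adjusted p = 3.9e-05). Electron carriers and inner membrane carriers had 2 of 14 higher and 2 lower in KO (14.3% each), and 4 higher and 4 lower in WT (28.6% each). These lie near the shares of all genes, 18.4% and 19.5% in KO and 24.9% and 25.7% in WT. Ucp2, a mitochondrial carrier that is also present in non-neuronal cells, averaged 943 ± 171 in KO striatum (SD, n = 3) and 454 ± 94.8 in KO cortex (SD, n = 4), and 883 ± 252 in WT striatum and 409 ± 19.1 in WT cortex (SD, n = 4 each). Genes of the outer membrane and of import had 4 of 10 higher and 1 lower in KO and 6 higher and 2 lower in WT. Tomm70a, an import receptor, averaged 8909 ± 2000 in KO striatum and 5221 ± 204 in KO cortex, and 12114 ± 2243 in WT striatum and 5176 ± 258 in WT cortex. Its log2 fold change was 0.75 in KO (limma adjusted p = 0.0014) and 1.21 in WT (adjusted p = 7e-06).

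Among 16 regulators of mitochondrial biogenesis, 4 were called higher and 1 lower in KO striatum, and 5 higher and 1 lower in WT striatum. Esrrg, an estrogen-related receptor that binds the ERR motif, averaged 2040 ± 711 in KO striatum and 1102 ± 135 in KO cortex, and 2243 ± 249 in WT striatum and 1146 ± 170 in WT cortex. Its log2 fold change was 0.84 in KO (SE 0.18, limma adjusted p = 0.0021) and 0.97 in WT (SE 0.17, adjusted p = 0.00023). Between KO and WT none of the genes on these lists was called in striatum or cortex. The median KO difference in striatum was -0.134 for complex I assembly, -0.126 for complex II, III and V assembly, -0.093 for complex IV assembly, -0.100 for carriers, -0.095 for the citrate cycle, -0.133 for outer membrane and import, and -0.009 for the regulators.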

How the data were processed

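RNA from striatum and cortex was sequenced as 75 bp single reads from libraries made of 800 ng total RNA, per the labels' protocols. Per the submitters' processing notes, the tools were DESeq2 1.12.4, HTSeq 0.6.0, TopHat2 2.1.1, cutadapt 1.1 and FastQC 0.11.5, and the build was GRCm38. The strand setting of the counting is not given in the sources used here. The values deposited by the authors are a signal, gene counts divided by a size factor per library. They are whole multiples of what 1 read is worth in each library (100% of values, within 0.001), so reads could be recovered.

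Differences were tested in limma 3.58.1 (R 4.3.3) with a mean trend on log2(value + 1), with 4 group means over 15 libraries and 17030 genes that had 10 or more in at least 3 libraries. Fold changes on this scale understate changes of low genes. p-values were adjusted by the Benjamini-Hochberg method and called below 0.05, and the fit was tested on simulated data. Alternatives were other pseudocounts and filters, TMM scaling, edgeR 4.0.16 and DESeq2 1.42.0 on recovered reads, the libraries of the compared groups alone, a replicate block, removal of trends with length and GC content, and leaving out libraries. The members, the lists and the 2 libraries left out together were chosen with earlier results of these data known. Members were named in the main by rule: the isoform families and Sdh genes, and per comparison the largest called changes or the smallest p. The rule also took the highest and lowest gene of each complex. Some were named outside the rule, among them Ndufv2, Ndufb10 and Ndufc2, which were called between tissues in both genotypes. Genes were matched to GRCm38 annotation by ID for 99.0% of rows. Figures were drawn with matplotlib 3.10.9.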

Additional observations from a re-analysis of the deposited data

Results flagged for a closer look

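A library stood apart from the other 3 of its group by Dixon's criterion in 10 of 273 tests, over the 85 member rows and 6 sums in the 3 groups of 4 libraries, and chance gives about 1 in 20. Cox6b1, a complex IV subunit, was at 2891 normalized counts in KO cortex 2, against 3101 to 3141 in the other KO cortex libraries. Cox6b2 was at 121 in WT striatum 5 (51.9 to 60.6 in the others), with Cox7b2 at 10.2 in the same library (6.10 to 6.73) and Cox8b at 44.4 there (4.49 to 7.42). WT striatum 5 also holds the highest choroid plexus sum, 148700. WT cortex 8 stood apart for 3 members: Cox7b2 at 6.02 (4.57 to 4.75 in the others), Cox7c at 1138 (1417 to 1470) and Sdhc at 1607 (1726 to 1729). Sdhd was at 1875 in WT cortex 5 (1791 to 1805 in the others). Cyc1 was at 2830 in KO cortex 3 (2693.4 to 2699.8 in the others). The Ndufa13 row ENSMUSG00000048967, annotated as Yjefn3, was at 205 in KO cortex 2 (175 to 177). Cox7b2 rests on 2 to 12 reads a library. Groups of 3 libraries were not examined in this way.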

How the results depend on the processing

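The members' count of calls between striatum and cortex in KO, 13, was 8 with no filter on low values, 8 with only the libraries of the compared groups and 5 with a replicate block, and 7 to 25 when 1 library was left out. With no filter, the compared groups only and the block, 7, 7 and 4 members were called higher, with 11.6%, 15.3% and 15.2% of all genes called higher. The count between KO and WT in striatum, 0, was 3 by DESeq2, 0 to 10 when 1 library was left out, 2 without KO striatum 4 and WT striatum 5, and 7 without KO striatum 4 and WT striatum 8. The cause was not tested. The counts of the other 3 comparisons stayed within 1.5 times in every setting run. The medians of all 5 moved by no more than the spread between libraries (0.099). That spread is larger than the median of striatum minus cortex in KO (0.089) and than the size of the interaction median (-0.078). For these comparisons it cannot show that the median held, since a median could pass it and still vanish or change sign. With 1 library left out, the members' median was -0.269 to -0.093 between KO and WT in striatum, -0.136 to -0.099 in cortex and -0.156 to 0.021 for the difference of these. Of the members called between tissues, 6 of 13 in KO and 22 of 32 in WT kept their call without any 1 of the 15 libraries.

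Replicate numbers are shared by striatum and cortex of a genotype. The correlation of the deviations of same-numbered libraries was 0.142, 0.115 and 0.0881 in KO and 0.00369 to 0.0942 in WT. The best other cortical library of the genotype gave -0.0167 to 0.127 in KO and 0.00226 to 0.0308 in WT. Of the 7 striatal libraries, 5 correlated best with their own number. Pairing is not stated and was left out of the main fit, so shared animals remain possible. With the replicate block 30 members were called in WT (28 of them higher, with 24.1% of all genes called higher), 5 in KO, 0 for the difference of effects and 0 between KO and WT in either tissue. Across 16 named tissue differences and 431 alternatives, the call was kept in 372, lost in 59 and reversed in 0. The fit with only the compared groups was not run for the difference of effects. Low transcripts such as Cox7b2 and Cox8b are limited by depth.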
